A study of Sus scrofa with 18 samples.

Results

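The genes described here encode the protein complexes of oxidative phosphorylation in the inner mitochondrial membrane. They were chosen by a rule on names, which was set with earlier results of these data known. Every probe set whose array annotation gave a symbol beginning with NDUFA, NDUFB, NDUFC, NDUFS, NDUFV, UQCR, COX4 to COX8 or ATP5, or equal to SDHA, SDHB, SDHC or SDHD, was taken, with 1 gene left out. A gene named by several probe sets was read from the brightest of them, by its mean over the 18 pigs. This gave 59 genes, on 64 probe sets. The array had 25388 probe sets, and those with a single gene symbol named 12307 genes. Of the 59, 50 are standard subunits, 31 of them of complex I, 1 of complex II, 1 of complex III, 6 of complex IV and 11 of complex V. The other 9 are 6 assembly factors of complex I (NDUFAF1, NDUFAF3, NDUFAF4, NDUFAF5, NDUFAF6 and NDUFAF7) and 3 genes that share the name pattern without being standard subunits (NDUFA4L2, ATP5S and ATP5SL). A further 18 RefSeq gene symbols that match the pattern had no probe set of their own name and were not analysed here, SDHA among them.

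RNA was measured with 1-colour arrays in the liver of 18 male crossbred growing pigs, 6 for each of 3 diets, taken at random from 10 pigs fed each diet. Feeding began at an age of 5 weeks and lasted 4 weeks, and the pigs were killed in the fed state on day 29. The control diet (CON) held soybean extraction meal and 0% insect meal. In IM5 and IM10 the feed held 5% and 10% meal of Tenebrio molitor larvae (yellow mealworm), which took the place of 50% and 100% of the soybean meal. The diets also differed in cellulose, free amino acids and oils, so that a difference belongs to a whole diet and not to the larvae alone. No pig carried a genetic change. The pigs of each diet were kept in 3 pens, and the pen of each pig is not given. With 6 pigs from 3 pens, some pigs of a diet must have shared a pen. The tests and intervals below treat each pig as independent.

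In oxidative phosphorylation, complex I (NADH dehydrogenase) and complex II (succinate dehydrogenase) pass electrons from NADH and succinate to coenzyme Q. Complex III passes them on to cytochrome c and complex IV (cytochrome c oxidase) to oxygen, and the proton gradient built up on the way drives complex V, the ATP synthase. Liver is rich in mitochondria, and its gluconeogenesis, urea synthesis and fat oxidation depend on this chain. All genes in the set are in the nucleus, while the mitochondrial genome encodes a few core subunits of complexes I, III, IV and V. The roles given below are those of the human or bovine proteins.

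Values are log2 units of normalised signal, so that a difference of 0.26 is a 1.2-fold change. Array medians lay between 5.05 and 5.15, the values between 0.68 and 13.0, and the correlation between any 2 arrays between 0.986 and 0.992. How bright a probe set is depends on its probes as well as on the transcript, so no gene's level was set against another's. In bulk liver, fewer cells of a type and less RNA per cell cannot be told apart. The 7 measured hepatocyte markers had a mean level between 11.59 and 11.72 in every pig. Of these 7, 3 were higher than CON in IM10 and 5 in IM5, and limma p was below 0.05 for 0 in both. In IM10 against IM5, 3 of them were higher and 4 lower (1, lower, with limma p below 0.05). The mean of 10 smooth muscle and stellate cell markers ranged from 6.12 to 6.49 in CON, from 6.16 to 7.54 in IM5 and from 6.11 to 6.81 in IM10. Of these 10, 8 were higher than CON in IM10 (4 with limma p below 0.05) and 9 in IM5 (1 with limma p below 0.05). The mean of 10 macrophage markers ranged from 7.56 to 7.87, from 7.67 to 8.01 and from 7.45 to 7.96, and the mean of 7 skeletal and heart muscle markers from 3.91 to 4.09, from 3.90 to 4.12 and from 3.85 to 4.12. Of the 10 macrophage markers, 7 were lower than CON in IM10 and 9 higher in IM5, and 2 had limma p below 0.05 in each. All 10 were lower in IM10 than in IM5 (3 with limma p below 0.05). The mean of 8 erythroid markers ranged from 4.94 to 5.24, from 5.11 to 5.41 and from 5.04 to 5.42, and all 8 had a higher group mean than CON in both insect meal diets (1 with p below 0.05 in each). The mean of 14 T and NK cell markers ranged from 4.92 to 5.37, from 4.66 to 5.12 and from 4.86 to 5.25. Of these 14, 10 were lower than CON in IM10 and 12 in IM5 (2 with limma p below 0.05 in each). In IM10 against IM5, 11 of them were higher and 3 lower (2, both higher, with limma p below 0.05). Of 7 cholangiocyte markers, 5 were higher than CON in IM10 and 4 in IM5, and limma p was below 0.05 for 0 and 3. Of 7 liver endothelium markers, 4 were higher than CON in IM10 and 6 in IM5, and limma p was below 0.05 for 2 and 1. Over all probe sets, limma p was below 0.05 for 6.07% in IM10 against CON, 5.72% in IM5 against CON and 5.4% in IM10 against IM5. The part of these cell types in the results below was not tested.

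The hepatic transcripts of oxidative phosphorylation differed little between the diets. Of the 59 genes, 57 met the study's criteria (a change of more than 1.2-fold and an unadjusted p below 0.05) in none of the 3 comparisons. The other 2 were NDUFA1, a small accessory subunit of complex I, which exceeded CON 1.2-fold in the IM10 pigs, and NDUFAF4, an assembly factor of complex I, which was 1.22-fold lower there. Neither passed the correction over all probe sets. The core of complex I, complex II, complex III, complex IV and complex V held no gene that met the criteria in any comparison.

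In IM10 against CON, 33 of the 59 genes were higher and 26 lower. The median log2 difference over the 59 was 0.003, the same as over all probe sets, where it was also 0.003. The single differences ran from -0.29 (NDUFAF4) to 0.27 (NDUFA1), and the median of their sizes was 0.038 against 0.065 over all probe sets. The criteria were met by 2 of 59 genes, or 3.39%, beside 2.07% of all probe sets, and an unadjusted p below 0.05 was reached by the same 2 genes, beside 6.07% of all probe sets. In none of the 59 did the pigs of IM10 lie wholly above or below those of CON, which was so for 0.256% of all probe sets. After Benjamini-Hochberg adjustment over all probe sets neither limma nor the equal variance test of the study's methods called any gene, here or in the other 2 comparisons; the smallest adjusted p of the 59 in limma was 0.613.

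In IM5 against CON, 28 genes were higher and 31 lower, with a median log2 difference of -0.008 beside 0.003 over all probe sets. None of the 59 met the criteria, beside 1.92% of all probe sets. In limma, 1 gene had an unadjusted p below 0.05 (UQCRB, of complex III, lower in IM5), beside 5.72% of all probe sets. The methods' test and the exact permutation test each gave 3 such genes. Over all probe sets the methods' test gave 1432 of 25388, and the exact test was not run over them. No gene separated the pigs of IM5 from those of CON, beside 0.225% of all probe sets, and the smallest adjusted p was 0.863.

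In IM10 against IM5, 27 genes were higher, 31 lower and 1 equal. The criteria were met by 0 of 59, beside 1.59% of all probe sets. An unadjusted p below 0.05 was reached in limma by 2 genes, UQCRB and ATP5D, beside 5.4% of all probe sets. In the methods' test it was reached by 4 genes, beside 1487 of 25388 probe sets. No gene separated the pigs of the groups, beside 0.213% of all probe sets. In the fit of a slope over 0%, 5% and 10% insect meal in all 18 pigs, 2 of 59 genes had an unadjusted p below 0.05 (NDUFA1 and NDUFAF4), beside 5.32% of all probe sets. In limma the counts at p below 0.05 were 1 or 2 of 59, too few to set these shares apart from those over the array. The share meeting the criteria in IM10 against CON lay on the other side, at 3.39% beside 2.07%.

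**Figure D1:**
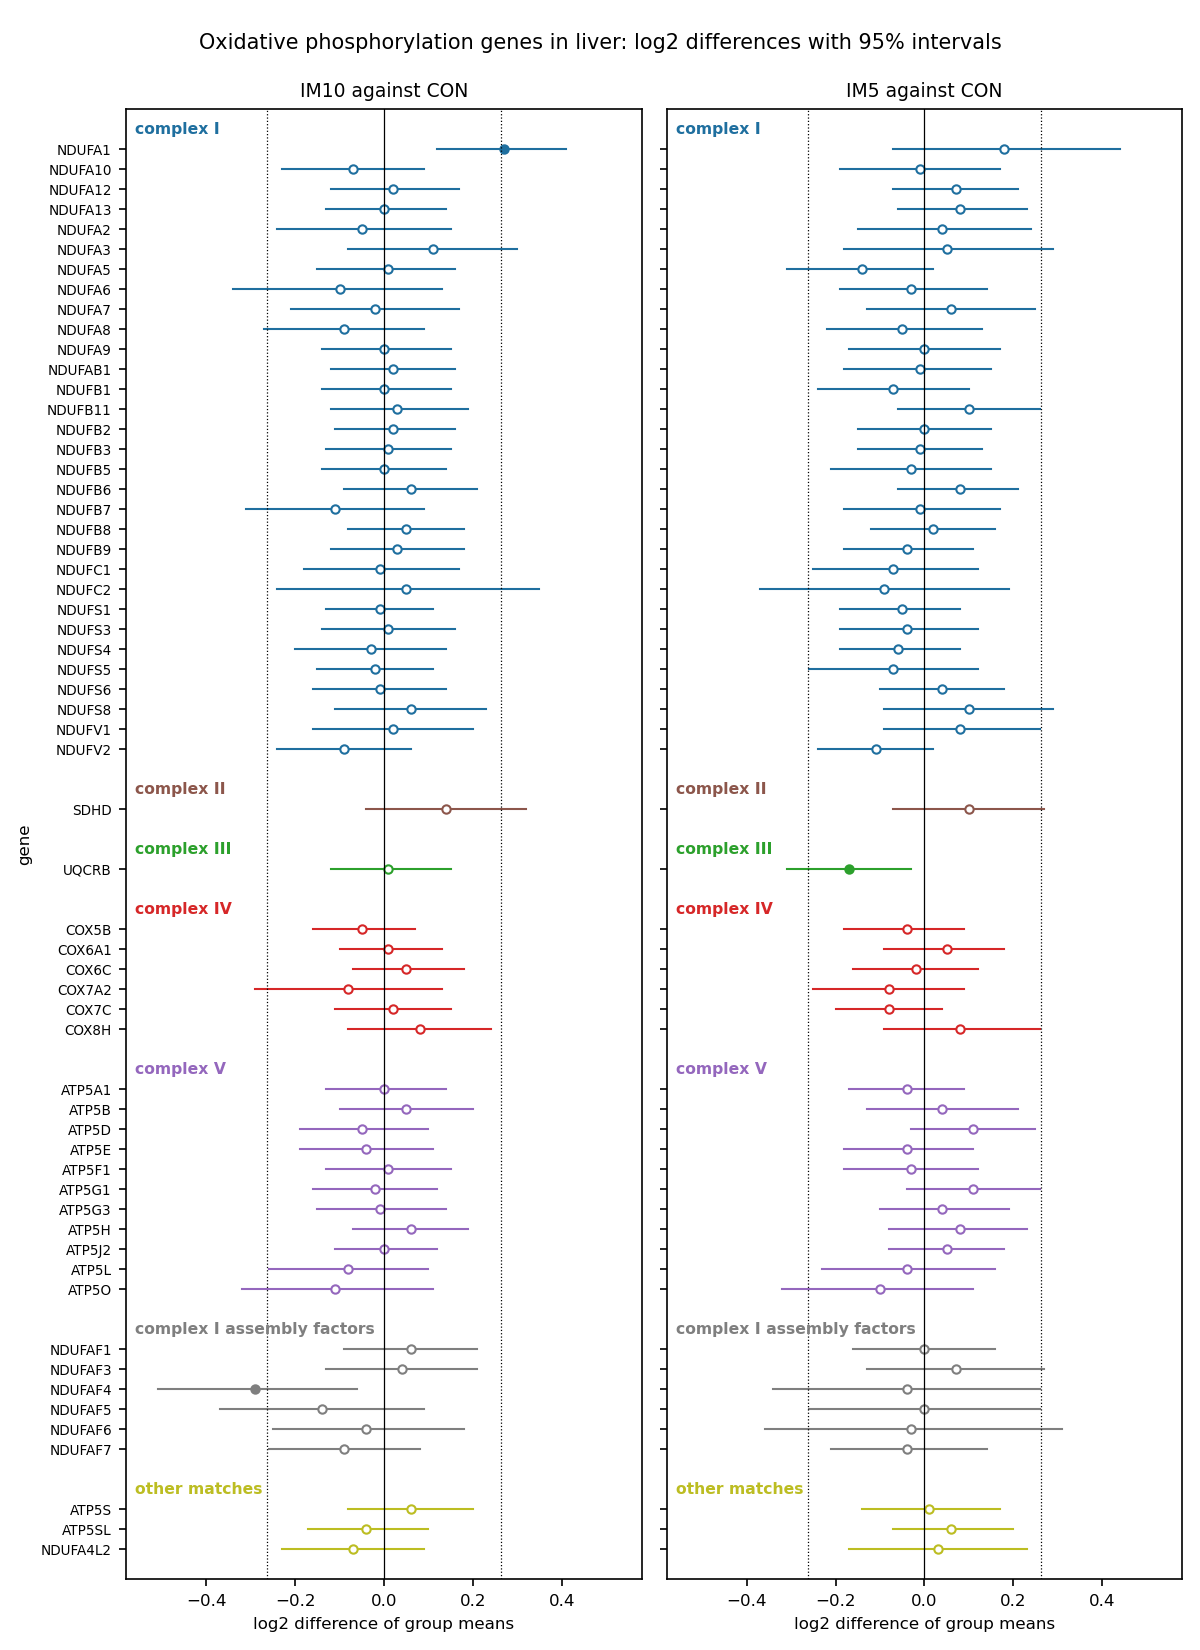
Log2 difference of group means (horizontal axis) for each of the 59 genes (vertical axis, by complex), with 95% intervals from limma, 6 pigs a group; the left panel is IM10 against CON and the right panel IM5 against CON. Filled points have an unadjusted p below 0.05 and dotted lines mark a 1.2-fold change. Only the points of NDUFA1 and NDUFAF4 lie beyond a dotted line on the left, and no point does on the right.

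For most genes the intervals were narrow enough to bound the change. In IM10 against CON the 95% interval lay wholly within a 1.2-fold change in either direction for 48 of the 59 genes (81.4%), beside 52.9% of all probe sets. In IM5 against CON this was so for 47 (79.7%, beside 47.1%), and in IM10 against IM5 for 46 (78%, beside 47.3%). It held in both comparisons with CON for 43 genes and in all 3 comparisons for 40. The intervals of 12 genes that are not assembly factors reached beyond 1.2-fold in at least 1 comparison with CON: NDUFA1, NDUFA3, NDUFA5, NDUFA6, NDUFA8, NDUFB7, NDUFC2, NDUFS8, SDHD, UQCRB, COX7A2 and ATP5O. Among the assembly factors it was so for NDUFAF3, NDUFAF4, NDUFAF5 and NDUFAF6. For these genes the data from 6 pigs a diet do not bound the change to 1.2-fold. The shares over all probe sets include many dim probe sets, which varied more between pigs, and shares matched for brightness were not computed.

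These intervals go with a small spread between pigs fed the same diet. The median of the SD within a diet was 0.115 over the 59 genes, 0.159 over all probe sets and 0.141 over those brighter than the median probe set. It was 0.073 for complex IV, 0.099 for complex V, 0.118 for complex I and 0.173 for the assembly factors. The smallest SD were those of ATP5J2 (0.06), a subunit of the membrane part of the ATP synthase, COX7C (0.065) and COX5B (0.067), and the largest was that of NDUFC2 (0.291), an accessory subunit of the membrane arm of complex I. The 52 genes whose value exceeded the array median on every array had a median SD of 0.107. The 7 that did not (NDUFA1, NDUFA6, NDUFAF4, NDUFAF5, NDUFAF6, COX8H and NDUFA4L2) had one of 0.199. Both genes that met the criteria are among these 7.

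**Figure D2:**
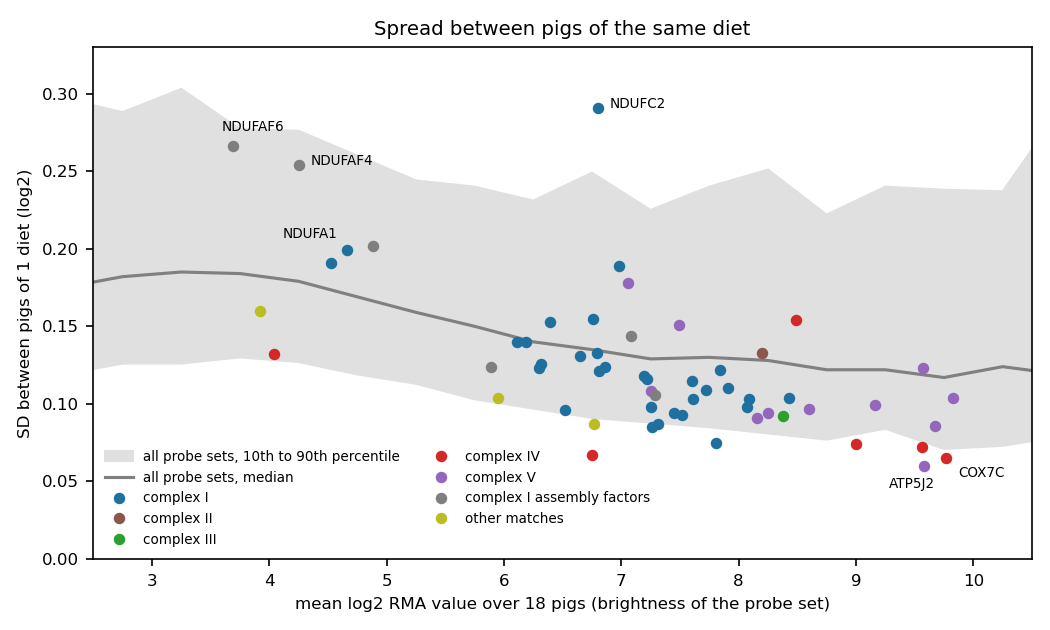
SD between pigs of 1 diet (vertical axis, log2, pooled over the 3 diets) against the mean log2 value over 18 pigs (horizontal axis), 1 point a gene, coloured by complex. The grey line is the median over all probe sets in bins of brightness and the band runs between their outer deciles. Complex IV and V genes lie mostly below the line, and NDUFC2 lies above the band.

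Complex I is an L-shaped enzyme with a matrix arm, which takes electrons from NADH, and a membrane arm, which pumps protons. Of its 31 genes here, 19 were higher and 12 lower in IM10 than in CON (median 0.003), and 14 higher and 17 lower in IM5 than in CON (median -0.01). The 5 core subunits of the matrix arm that were measured (NDUFV1, NDUFV2, NDUFS1, NDUFS3 and NDUFS8) differed from CON by -0.09 to 0.06 in IM10 and by -0.11 to 0.10 in IM5. The 9 NDUFB subunits, in the membrane arm, differed by -0.11 to 0.06 and by -0.07 to 0.10. The 12 NDUFA genes had the widest range, from -0.10 to 0.27 in IM10 and from -0.14 to 0.18 in IM5.

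NDUFA1 is a small protein of the membrane arm that complex I needs for its assembly. Its log2 values had a lowest, median and highest of 4.39, 4.5 and 4.68 in CON, 4.3, 4.65 and 5.23 in IM5 and 4.57, 4.81 and 4.85 in IM10. In IM10, 5 of 6 pigs lay above the highest CON pig, and the remaining pig lay inside the CON range. The mean was 4.51 ± 0.11 (SD, n = 6) in CON and 4.78 ± 0.11 in IM10, a difference of 0.27 (95% interval 0.12 to 0.41; limma p = 0.00159, adjusted p = 0.613, exact permutation p = 0.00433). IM5 was at 4.69 ± 0.31, with pigs below and above the whole CON range, and its difference from CON was 0.18 (-0.07 to 0.44; exact permutation p = 0.219). The size of the IM10 difference lay at the 1.2-fold limit: it was 0.25 with quantile normalization or with arrays centred on their median, below that limit, and it ran from 0.24 to 0.31 when 1 pig was left out, each with an unadjusted p below 0.05. The study's supplement lists this gene from the same samples, so that the list and the value here are not independent.

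NDUFV2 is an iron-sulfur subunit of the core that takes part in the entry of electrons from NADH. Its 6 CON pigs lay close together, from 7.62 to 7.72 with a median of 7.675 and an SD of 0.03. The IM5 pigs had a lowest, median and highest of 7.41, 7.59 and 7.65 and the IM10 pigs of 7.35, 7.595 and 7.79. In IM5, 4 of 6 pigs lay below the lowest CON pig, and the difference was -0.11 (-0.24 to 0.02). The tests disagreed: limma, which draws a gene's spread towards that of other probe sets, gave p = 0.0825 (adjusted p = 0.868), and the exact permutation test gave p = 0.00649. In IM10 the pigs lay on both sides of the CON range, with a difference of -0.09 (exact permutation p = 0.227).

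Among the other accessory subunits, NDUFA5 of the matrix arm had medians of 6.905 in CON, 6.815 in IM5 and 6.95 in IM10. Its values were 6.75 to 7.08, 6.5 to 6.85 and 6.68 to 7.01, and the difference between IM5 and CON was -0.14 (exact permutation p = 0.0671). NDUFA3 had values from 6.78 to 7.25 in CON (median 6.9), from 6.64 to 7.3 in IM5 (median 6.99) and from 6.82 to 7.23 in IM10 (median 7.045). The groups overlapped throughout, with differences from CON of 0.05 and 0.11 (exact permutation p = 0.645 and 0.264). NDUFC2 ranged from 6.68 to 7.15 in CON, from 6.37 to 7.23 in IM5 and from 6.54 to 7.48 in IM10, and this span within a diet was wider than the differences of IM5 and IM10 from CON, -0.09 and 0.05. Without IM10 pig 6, the highest, its difference between IM10 and CON was -0.07. NDUFB7 was lower in IM10 than in CON by 0.11 and NDUFB11 higher in IM5 by 0.10, with exact permutation p of 0.318 and 0.184. NDUFA6 had a pair of probe sets: the brighter one, which stands for the gene, differed between IM10 and CON by -0.10 (exact permutation p = 0.424) and the other by -0.24.

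The assembly factors do not stay in the finished enzyme but help to build it. In IM10 2 of the 6 were higher and 4 lower than in CON, with a median of -0.063, and in IM5 also 2 higher and 4 lower, with a median of -0.015. NDUFAF4, which acts on intermediates of complex I, had a lowest, median and highest log2 value of 4.13, 4.37 and 4.61 in CON, 3.76, 4.375 and 4.68 in IM5 and 3.83, 4.07 and 4.36 in IM10. In IM10, 3 of 6 pigs lay below the lowest CON pig and none above the highest, while IM5 had pigs on both sides of the CON range. The difference between IM10 and CON was -0.29 (-0.51 to -0.06; limma p = 0.0151, adjusted p = 0.754, exact permutation p = 0.0346), and that between IM5 and CON was -0.04. This gene too is in the study's own list from these samples.

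When 1 pig at a time was left out, the difference of NDUFAF4 lay between -0.34 and -0.24, with an unadjusted p below 0.05 each time. Its dose slope no longer reached p below 0.05 when any 1 of CON pigs 1, 4 and 5 or IM10 pigs 1, 3 and 6 was left out. NDUFAF5, which modifies a core subunit during assembly, had medians of 5.025 in CON, 4.85 in IM5 and 4.77 in IM10. Its IM10 pigs (4.66 to 4.92) lay inside the CON range of 4.42 to 5.17, and the difference was -0.14 (exact permutation p = 0.258). This rests on CON pig 6 at 4.42: the other 5 CON pigs lay between 4.83 and 5.17, with 4 of 6 IM10 pigs below them, and without pig 6 the difference was -0.24 and the dose slope reached p below 0.05 in limma. NDUFAF1, which acts on the membrane arm, was 0.06 higher in IM10 and equal to CON in IM5 to the second decimal.

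Complex II is the only enzyme that belongs both to the respiratory chain and to the tricarboxylic acid cycle. Its measured gene was SDHD, which anchors the enzyme in the membrane. SDHD had a lowest, median and highest value of 8.02, 8.085 and 8.41 in CON, 8.06, 8.23 and 8.37 in IM5 and 8.14, 8.235 and 8.51 in IM10. In CON, 5 of 6 pigs lay at or below 8.12, and CON pig 6 at 8.41 lay above all IM5 pigs. The differences from CON were 0.14 in IM10 (-0.04 to 0.32) and 0.10 in IM5 (-0.07 to 0.27), with exact permutation p of 0.121 and 0.214. The dose slope did not reach p below 0.05 in limma with all pigs and did so without CON pig 6.

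Complex III was represented by UQCRB, a small subunit near the site where coenzyme Q binds. Its log2 values had a lowest, median and highest of 8.3, 8.445 and 8.51 in CON, 8.11, 8.265 and 8.38 in IM5 and 8.31, 8.425 and 8.56 in IM10. In IM5, 4 of 6 pigs lay below the lowest CON pig, while IM10 pigs lay in and above the CON range. IM5 was lower than CON by 0.17 on the log2 scale (-0.31 to -0.03; limma p = 0.0205, adjusted p = 0.863, exact permutation p = 0.0108). IM10 was above IM5 by 0.18 (0.04 to 0.33; p = 0.0184, adjusted p = 0.881, exact permutation p = 0.013) and differed from CON by 0.01 (-0.12 to 0.15). The gene thus had its lowest mean at the middle amount of insect meal. These 2 comparisons share the IM5 pigs, and both changes were smaller than 1.2-fold. Without IM5 pig 3, the lowest, the difference between IM5 and CON was -0.14, and its unadjusted p no longer lay below 0.05.

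**Figure D3:**
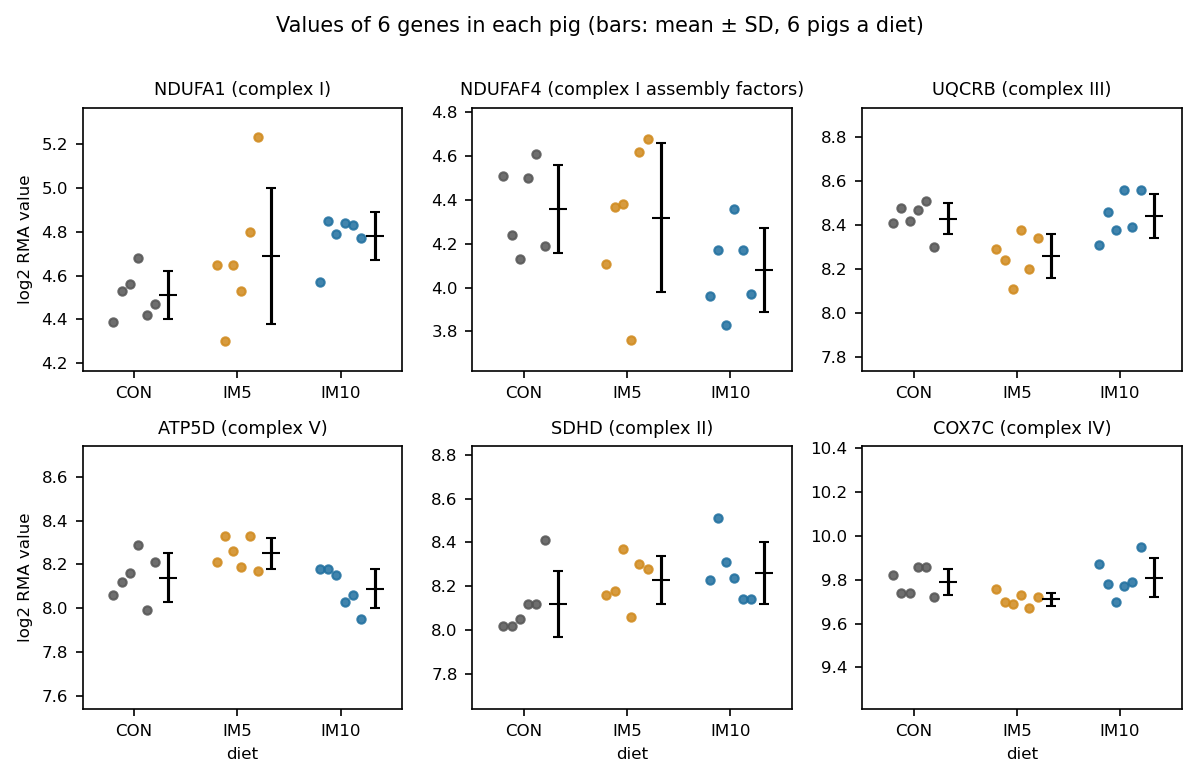
Log2 values of NDUFA1, NDUFAF4, UQCRB, ATP5D, SDHD and COX7C in each pig (points) by diet, with mean ± SD of 6 pigs beside them; each panel spans 1.2 log2 units. In NDUFA1, 5 of 6 IM10 pigs lie above all CON pigs; in UQCRB, 4 of 6 IM5 pigs lie below all CON pigs.

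Complex IV hands the electrons to oxygen, and its nuclear subunits surround a core that mitochondria encode. The 6 genes measured (COX5B, COX6A1, COX6C, COX7A2, COX7C and COX8H) differed from CON by -0.08 to 0.08 in both IM10 and IM5, and none had a limma p below 0.05. COX7C, with a within-diet SD of 0.065, had values of 9.72 to 9.86 (median 9.78) in CON, 9.67 to 9.76 (median 9.71) in IM5 and 9.7 to 9.95 (median 9.785) in IM10. Its IM5 pigs lay in the lower part of the CON range and below it, with a difference of -0.08 (limma p = 0.193, exact permutation p = 0.0325). IM10 was above IM5 by 0.10 (limma p = 0.119, exact permutation p = 0.0216). COX6A1, the form of subunit VIa found in liver, had values of 9.46 to 9.59 in CON, 9.43 to 9.7 in IM5 and 9.49 to 9.65 in IM10. COX8H, the heart and muscle form of subunit VIII, was dim, at 3.88 to 4.22, 3.9 to 4.32 and 3.98 to 4.26. Its difference from CON was 0.08 in both diets (exact permutation p = 0.314 in IM5 and 0.268 in IM10).

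Complex V consists of the F1 part, which makes ATP in the matrix, and the Fo part with its stalk, through which the protons flow. Its 11 genes had a median difference from CON of -0.005 in IM10 and 0.04 in IM5, and of -0.017 between IM10 and IM5. ATP5A1 and ATP5B, the alpha and beta subunits that form the catalytic head, had values from 9.62 to 9.78 and from 9.42 to 9.67 in CON. In IM10 ATP5B covered nearly the same span (9.44 to 9.69). ATP5A1 ran wider there, from 9.51 to 9.8, with 1 pig below the lowest CON pig and 1 above the highest. The differences of both genes from CON lay between -0.04 and 0.05.

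ATP5D, the delta subunit of the rotor in F1, had a lowest, median and highest value of 7.99, 8.14 and 8.29 in CON, 8.17, 8.235 and 8.33 in IM5 and 7.95, 8.105 and 8.18 in IM10. In IM10, 4 of 6 pigs lay below the lowest IM5 pig. The difference between IM10 and IM5 was -0.16 (-0.29 to -0.02; limma p = 0.0271, adjusted p = 0.881, exact permutation p = 0.00866). Neither diet differed from CON at p below 0.05 (0.11 in IM5 and -0.05 in IM10, with exact permutation p of 0.0693 and 0.452). The call was lost without any 1 of IM10 pigs 4 and 6 and IM5 pigs 2 and 5, where the difference was -0.14 or -0.13.

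In the Fo part, ATP5G1, which encodes the subunit c of the proton-carrying ring, had medians of 7.245 in CON, 7.345 in IM5 and 7.225 in IM10. In IM5, 4 of 6 pigs exceeded the highest CON pig (7.28), with a difference of 0.11 (exact permutation p = 0.0823), and IM10 differed from CON by -0.02. ATP5O, the stalk protein known for giving the enzyme its oligomycin sensitivity, ranged from 6.83 to 7.35 in CON, from 6.88 to 7.28 in IM5 and from 6.81 to 7.22 in IM10, with differences of -0.10 and -0.11 (exact permutation p = 0.364 and 0.32). Of the 3 genes that are no standard subunits, NDUFA4L2, a relative of the complex IV subunit NDUFA4 that hypoxia induces, had values of 3.77 to 4.06, 3.73 to 4.31 and 3.65 to 4.08 and differences of 0.03 and -0.07.

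Each pig was also described by the median, over genes, of its deviation from each gene's mean over the 18 pigs. Over the 59 genes this deviation ran from -0.039 to 0.056 in CON, from -0.057 to 0.024 in IM5 and from -0.063 to 0.046 in IM10, so that the pigs of the diets overlapped. The group means were 0.003 ± 0.035, -0.006 ± 0.032 and -0.006 ± 0.039 (SD, n = 6). The lowest pig was IM10 pig 5 and the highest CON pig 4, in which 20 and 42 of the 59 genes lay above their own mean. The complexes gave overlapping ranges as well: -0.034 to 0.056, -0.036 to 0.044 and -0.087 to 0.063 for complex I, and -0.051 to 0.034, -0.104 to 0.049 and -0.099 to 0.037 for complex V, in CON, IM5 and IM10. The deviation of the assembly factors spread from -0.115 to 0.229 in CON and from -0.164 to 0.266 in IM5, but only from -0.057 to -0.002 in IM10. That narrower range in IM10 was seen after the values were known, and it was not tested.

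**Figure D4:**
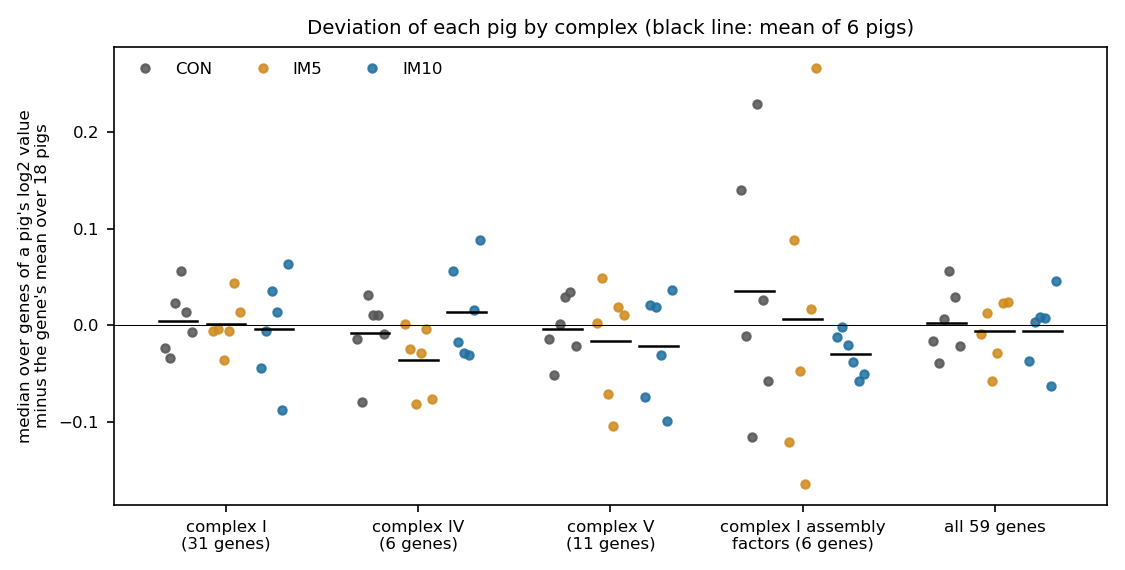
Median over genes of each pig's deviation from the gene's mean over 18 pigs (vertical axis, log2), by complex (horizontal axis) and diet, 1 point a pig; black lines are means of 6 pigs. Complexes II and III, with 1 gene each, are left out. The diets overlap in every column.

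The mitochondrial genome's own subunits were read on 8 probe sets (COX1, COX2, CYTB, ND1, ND2, ND3, ND5 and ND6). None had a p below 0.05 in limma in any comparison. In IM5, 0 of 8 were higher and 8 lower than in CON, with a median of -0.028, and in IM10 6 were higher and 2 lower, with a median of 0.018. All 8 were higher in IM10 than in IM5, by 0.03 to 0.17, but most of these transcripts are cut from shared precursors and are not separate evidence. Of the 8, 6 had values near the top of the array's range (COX1, from 12.7 to 12.85), and whether their signal was saturated is not given.

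Other genes of the pathway were read from lists outside the name rule, beside the shares of all probe sets with p below 0.05 given above. Of 5 further proteins linked to oxidative phosphorylation, 0 had a p below 0.05 in any pair of diets: the phosphate carrier SLC25A3, the ADP/ATP carrier SLC25A4, the transhydrogenase NNT, the ATP synthase-associated USMG5 and the flavoprotein AIFM1. No further subunit of complex III and no cytochrome c was read. In the tricarboxylic acid cycle, which supplies NADH and succinate, 0 of 9 genes did so against CON and 1 of 9 in IM10 against IM5: IDH3G, a subunit of NAD-dependent isocitrate dehydrogenase, at -0.17 (exact permutation p = 0.0195). Of 14 assembly factors outside the rule, 0 did so against CON and 1 (COX10, which makes the heme of complex IV) in IM10 against IM5, at -0.20 (exact permutation p = 0.0238). Leaving out 1 pig ended both of these calls in some cases, and the difference of COX10 was -0.12 without IM5 pig 2.

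Of 11 regulators of mitochondrial biogenesis, 1 had a p below 0.05 in each pair of diets, where the shares of all probe sets were 6.07%, 5.72% and 5.4%. In IM10 and IM5 against CON it was SSBP1, which binds single-stranded mitochondrial DNA, at 6.63 ± 0.10 in CON, 6.47 ± 0.08 in IM5 and 6.48 ± 0.13 in IM10 (exact permutation p = 0.0173 and 0.0476). Both comparisons use the same CON pigs, and the call was lost for 9 of 12 pigs left out in IM10 against CON and for 5 of 12 in IM5 against CON. In IM10 against IM5 it was PPRC1, a coactivator related to PGC-1alpha, at 5.30 ± 0.08 and 5.55 ± 0.21 (exact permutation p = 0.0303). In the dose slope, SSBP1 and the assembly factor TACO1 reached p below 0.05 in limma, both falling, beside 5.32% of all probe sets.

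Among 12 genes of coenzyme Q synthesis and electron entry, 1 met the criteria, in IM5 against CON, where 1.92% of all probe sets did. GPD2, the mitochondrial glycerol-3-phosphate dehydrogenase that feeds electrons into coenzyme Q, was at 4.52 ± 0.13 in CON, 4.26 ± 0.13 in IM5 and 4.51 ± 0.13 in IM10 (SD, n = 6). It was lower in IM5 than in CON by 0.27 on the log2 scale (-0.44 to -0.10; limma p = 0.00464, adjusted p = 0.863, exact permutation p = 0.0108). With 1 pig left out the difference ran from -0.31 to -0.23, on both sides of the 1.2-fold limit. IM10 was above IM5 by 0.26 (limma p = 0.00556, adjusted p = 0.881, exact permutation p = 0.00866) and differed from CON by -0.01. As in UQCRB, the lowest mean was that of IM5, and the 2 comparisons that reach p below 0.05 share the IM5 pigs.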

How the data were processed

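Liver RNA of 18 pigs was hybridised to Affymetrix Porcine Gene 1.0 ST arrays. The authors deposited log2 values for 25388 probe sets, normalized by RMA in Affymetrix Expression Console. The versions of these tools, and a genome build, are not given in the sources used here. RMA subtracts a modelled background, makes the arrays' distributions alike and sums up probes, which removes shifts common to all genes and compresses differences of dim probe sets. The values were used as deposited, with no filter. Symbols come from the platform annotation: 13257 probe sets had 1 symbol, 427 several and the rest none, and only the first were used. The gene number gave the same symbol in the RefSeq table for 58 of the 59 genes, and 1 had no gene number.

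Each pair of diets was compared on its 12 arrays with limma 3.58.1 (R 4.3.3; lmFit and eBayes), with Benjamini-Hochberg adjustment over all probe sets. All p-values are two-sided, and p without a test named is limma's, unadjusted. The criteria are those of the study's methods: over 1.2-fold and unadjusted p below 0.05. The exact permutation test used all 924 arrangements of 6 against 6 pigs (smallest p 0.00216). The dose slope used all 18 arrays. The fits were tested on simulated data.

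Named were the genes at the criteria, the 5 highest and 5 lowest differences from CON, complex II, tissue forms and genes the study lists or uses as reference; COX7C, SSBP1, COQ8A, IDH3G, COX10, PPRC1 and TACO1 were added after their values were seen, COX6A1, ATP5A1, ATP5B and COX1 to describe their complexes. The members and lists were chosen with earlier results of these data known. A gene that matches the name rule is not reported here, and no sequence is printed. COX7A2 and NDUFS8 each have a pair of probe sets with identical values, used as 1. Alternatives tried were the methods' t-test, a fit over all 18 arrays, the replicate number as a block, quantile normalization, centring on array medians, a filter on dim probe sets, the mean of a gene's probe sets, the 50 standard subunits alone and each pig left out. The number of arrays limits the precision. The p-values of limma and of the methods' t-test set a difference of means against the spread between pigs of the same diet. All tests take the pigs as independent, and pens could not be modelled.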

Additional observations from a re-analysis of the deposited data

Results flagged for a closer look

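Among 177 sets of 6 values (59 genes in 3 diets), 11 held a pig whose gap to its nearest neighbour took more than 0.625 of the set's range, a test that chance passes in about 1 of 20 sets. In CON these were NDUFA3 in pig 3 (7.25), NDUFC2 in pig 1 (7.15), SDHD in pig 6 (8.41) and ATP5E in pig 3 (10.04), all above the other CON pigs. In IM5 they were NDUFA5 (6.5) and NDUFB1 (7.62) in pig 3, NDUFA10 (7.44), NDUFB8 (7.08) and ATP5E (10.01) in pig 4 and NDUFA12 in pig 5 (7.47). In IM10 the only one was NDUFA1 in pig 1 at 4.57, below the other IM10 pigs, and without this pig the difference of NDUFA1 between IM10 and CON was 0.31.

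For 2 genes the effects of the 2 insect meal diets differed at an unadjusted p below 0.05 in limma. The CON mean cancels in this difference, so it is the comparison of IM10 against IM5 already given and not a further test. The effect of IM10 minus that of IM5 was 0.18 for UQCRB (exact permutation p = 0.013) and -0.16 for ATP5D (exact permutation p = 0.00866). Neither passed the correction over all probe sets (adjusted p = 0.881 for both in limma).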

How the results depend on the processing

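Among the genes with p below 0.05 (NDUFA1, NDUFAF4, UQCRB, ATP5D, GPD2, SSBP1, COQ8A, COX10, IDH3G and PPRC1), none changed direction under the alternatives run. The medians over the 59 genes, all near 0, took both signs, and so did the difference of 29 genes in IM10 against CON, 20 in IM5 against CON and 22 in IM10 against IM5 when a pig was left out. NDUFA1 and NDUFAF4 kept p below 0.05 in all 19 alternatives, but their sizes lay at the 1.2-fold limit: the count of genes at the criteria in IM10 against CON was 1 with quantile normalization, 1 with arrays centred on their median and 1 among the 50 standard subunits, and between 0 and 2 when a pig was left out. It was 0 without CON pig 1 or 5, and 1 without CON pig 4 or 6 or IM10 pig 2, 3, 4 or 5. It ran from 0 to 1 in the other 2 comparisons: NDUFA1 entered in IM5 against CON without IM5 pig 2 (0.26) and NDUFAF4 in IM10 against IM5 without IM5 pig 4 (-0.36).

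The count of probe sets at the criteria in IM5 against CON was 320 with the methods' t-test, against 488 in limma. Leaving out a pig moved these counts to between 535 and 628 in IM10 against CON, 490 and 671 in IM5 against CON and 389 and 599 in IM10 against IM5, and the medians over the 59 genes to between -0.013 and 0.015, -0.019 and 0.014, and -0.021 and 0.007. The count of genes with a dose slope at p below 0.05 was 1 to 4, with 4 without CON pig 6. ATP5D in IM10 against IM5 stayed between -0.17 and -0.13. The dim filter kept 19041 probe sets and 58 of the 59 genes.

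Deviations of same-numbered pigs correlated weakly. In IM10 against CON the correlations ran from 0.02 to 0.20, with a mean of 0.08 beside -0.02 for unlike numbers. In IM5 against CON they ran from -0.14 to 0.07 (means -0.02 and 0.0). In IM10 against IM5 they ran from -0.06 to 0.12 (means 0.04 and -0.01). Of 6 pigs, 3, 1 and 3 matched best with their own number in these comparisons. Whether the numbers pair any pigs cannot be told from these values. In fits with a replicate block, 1 gene had a dose slope at p below 0.05 (NDUFAF4 was lost), and UQCRB in IM5 against CON kept its difference of -0.17 but no longer reached that level. SSBP1 kept its differences of -0.16 in IM10 and in IM5 against CON but lost both calls. The block ended no other call of the genes named at the start. The cause was not tested.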

Other observations

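Quantile normalization had been planned for the comparisons and was applied to the deviations of single pigs only after the data were seen. With it, the median deviation of the 59 genes in each pig ran from -0.05 to 0.054, beside -0.063 to 0.056 in the values as deposited, and the pigs of the 3 diets overlapped in both. COQ8A, a kinase-like protein of coenzyme Q synthesis, was higher in IM5 than in CON by 0.19 (exact permutation p = 0.0152), the only other gene of its list with limma p below 0.05 in that comparison beside GPD2.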
